A study of Mus musculus with 48 samples.

Results

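The libraries described here came from CD45+ cells negative for CD4 and CD8, sorted from B16F10 tumors (TILs) and from the tumor-draining inguinal lymph nodes (TDLNs) of Yap-cKO mice. They were chosen by their labels, and they are 8 of the 48 libraries of the series, 4 from tumors and 4 from lymph nodes. A further 8 libraries, of CD45 cells from tumors and nodes of WT mice, serve below only for comparison. The study states that controls were littermates. B16F10 is a pigmented mouse melanoma line, and its cells had been injected under the skin of the flank. Tumors were followed for up to 15 days, and the mice were 6 to 10 weeks old. All 8 Yap-cKO libraries came from mice of a C57BL/6J background whose Yap gene was flanked by loxP sites. These mice expressed Cre from the Cd4 promoter, so tumor and node samples came from mice of the same genotype. Per the study they also carried an EYFP reporter that Cre turns on. Cre driven by the Cd4 promoter acts in the T-cell lineage, in which Cd4 is expressed during development in the thymus, and the sorted cells were negative for CD4 and CD8. The labels do not say which tumor and which node came from the same mouse, whether nodes of several mice were pooled, or whether the replicates of a group came from separate mice, and the p-values below therefore measure the spread between these libraries.

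CD45 (Ptprc) is the surface phosphatase that marks cells of hematopoietic origin. Without T cells, a lymph node yields mainly B cells, which enter and leave the node by chemokine and sphingosine-phosphate receptors and present antigen on MHC class II, with smaller numbers of dendritic cells, macrophages and natural killer cells. The corresponding cells of a growing tumor are mostly monocytes recruited from blood and the macrophages that develop from them, together with dendritic cells, neutrophils and natural killer cells. The comparison of TILs with TDLNs asks how the genes of these cells differ between both sites in mice whose T cells lack Yap.

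Sequences are shown for 3 sets of features on which results below rest, all on GRCm38 and read 5′ to 3′. The first set are the 3 alternative exons near the 5′ end of Ptprc on the minus strand of chromosome 1, which code for part of the extracellular domain of CD45 and are kept or skipped in different leukocytes. Capitals mark the exon, and 10 bases of the neighboring exons in transcript Ptprc-207 are in lower case.
Ptprc alternative exon 1, chr1:138122456-138122584: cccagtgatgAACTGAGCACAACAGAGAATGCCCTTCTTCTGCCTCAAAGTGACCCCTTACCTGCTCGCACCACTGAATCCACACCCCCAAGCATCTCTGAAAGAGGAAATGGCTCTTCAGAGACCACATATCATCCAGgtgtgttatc
Ptprc alternative exon 2, chr1:138120020-138120166: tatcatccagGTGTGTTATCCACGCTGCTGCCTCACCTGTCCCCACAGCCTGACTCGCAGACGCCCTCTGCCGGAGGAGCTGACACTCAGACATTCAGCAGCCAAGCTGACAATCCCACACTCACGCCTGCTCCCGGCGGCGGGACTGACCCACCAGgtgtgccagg
Ptprc alternative exon 3, chr1:138117754-138117894: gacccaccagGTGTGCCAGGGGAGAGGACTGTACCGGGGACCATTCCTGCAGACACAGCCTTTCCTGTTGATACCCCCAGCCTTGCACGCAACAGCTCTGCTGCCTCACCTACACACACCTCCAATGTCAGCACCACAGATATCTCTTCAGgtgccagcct

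The second set are the alternative ends of the IgM heavy chain gene Ighm on the minus strand of chromosome 12, of which one anchors IgM in the B-cell membrane and the other is the tail of secreted IgM. Capitals mark the membrane exon and the secretory tail, each absent from the other form, after 10 bases that both forms share. The lower-case bases at the end of the membrane sequence follow this exon in the membrane form and are not among the shared bases.
Ighm membrane exon, chr12:113418953-113419068: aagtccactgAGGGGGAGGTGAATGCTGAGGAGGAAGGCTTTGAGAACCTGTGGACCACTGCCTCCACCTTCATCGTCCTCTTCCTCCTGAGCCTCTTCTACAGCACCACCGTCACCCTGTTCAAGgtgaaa
Ighm secretory tail, coding bases, chr12:113420870-113420928: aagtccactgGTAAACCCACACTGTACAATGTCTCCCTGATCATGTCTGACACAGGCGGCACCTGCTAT

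The third set are the 250 bases before the start of 3 genes of glycolysis and the hypoxia response, from RefSeq on GRCm38.p6, in which capitals mark ACGTG on either strand (ACGTG or CACGT, which overlap in CACGTG), the core of the element bound by hypoxia-inducible factors.
Slc16a3 promoter, plus strand, chr11:120948817-120949066: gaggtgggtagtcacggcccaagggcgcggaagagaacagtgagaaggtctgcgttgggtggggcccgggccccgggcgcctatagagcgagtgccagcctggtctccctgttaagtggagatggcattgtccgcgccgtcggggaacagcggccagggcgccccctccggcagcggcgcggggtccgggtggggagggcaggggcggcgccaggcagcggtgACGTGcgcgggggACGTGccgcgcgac
Egln3 promoter, minus strand, chr12:54203875-54204124: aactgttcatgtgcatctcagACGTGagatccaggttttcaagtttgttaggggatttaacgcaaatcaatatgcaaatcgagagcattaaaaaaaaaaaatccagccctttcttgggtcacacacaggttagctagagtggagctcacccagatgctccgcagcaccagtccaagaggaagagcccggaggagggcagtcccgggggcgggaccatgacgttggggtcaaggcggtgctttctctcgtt
Ldha promoter, plus strand, chr7:46845554-46845803: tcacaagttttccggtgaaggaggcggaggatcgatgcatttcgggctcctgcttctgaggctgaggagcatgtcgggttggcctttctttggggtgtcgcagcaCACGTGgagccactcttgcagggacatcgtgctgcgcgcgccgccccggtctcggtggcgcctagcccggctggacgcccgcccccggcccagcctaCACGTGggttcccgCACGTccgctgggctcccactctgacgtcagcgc

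The authors deposited expected counts per transcript, which were summed per gene. They came to 17461611 to 20047858 per TDLN library (median 18944592) and 19421055 to 21915836 per TIL library (median 21129213). Values are given as CPM (counts scaled to library size, with TMM factors for library composition), as mean ± SD over 4 libraries or for replicates 1, 2, 3 and 4 in that order. Tissue accounted for 82.1% of the variance among the 8 libraries (first principal component). The second component, with 7.10%, set TDLN replicates 3 and 4 and TIL replicate 1 apart from the others. In these 3 libraries the fifth of genes with the lowest GC content was low for their group against the fifth with the highest, by −0.82, −0.28 and −0.47 on the log2 scale, while the other 5 libraries lay between 0.095 and 0.58. Calls of named genes that changed without these libraries are given with and without them. Counts of some gene lists below changed too, and not all of these are given. Immediate early genes went from 11 higher and 5 lower to 9 and 4. Toll-like receptors and adaptors went from 13 and 0 to 11 and 1, and immunoglobulin constant genes from 3 and 7 to 2 and 8. Yap1 (chr9:7931999-8004596), the targeted gene, was at 1.51, 1.06, 2.09 and 1.89 CPM in TDLNs and 1.27, 1.66, 1.77 and 1.62 CPM in TILs (log2 fold change −0.05, SE 0.339, adjusted p = 0.917). The sorted T cells of Yap-cKO mice held 620.7 to 1138 CPM of Cd3e and Cd3d in the group means, while the CD45 libraries held 4.26 and 5.31 CPM in TDLNs and 2.10 and 3.44 CPM in TILs (CPM by total counts).

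Of 13734 genes that reached 10 counts in 4 or more libraries, 5538 (40.3%) differed between TILs and TDLNs with an adjusted p below 0.05 and more than 1 unit of log2 fold change in either direction (quasi-likelihood F test in edgeR, p-values adjusted by Benjamini-Hochberg, 4 libraries per tissue). In TILs 3000 genes (21.8%) were higher and 2538 (18.5%) were lower, and the libraries of both tissues did not overlap for 7162 genes (52.1%). Counts within the gene lists below are to be read against these shares of all tested genes. All adjusted p-values below are from this fit, and log2 fold changes are TILs over TDLNs. The split depended on the scaling of the libraries. With total counts in place of TMM the median log2 fold change of all genes fell from −0.09 to −0.31, and 2604 genes were higher and 3284 lower. Without the 3 libraries low in GC-poor genes 3304 were higher and 2250 lower. In these bulk samples, fewer cells of a type and less RNA per cell cannot be told apart.

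**Figure D1:**
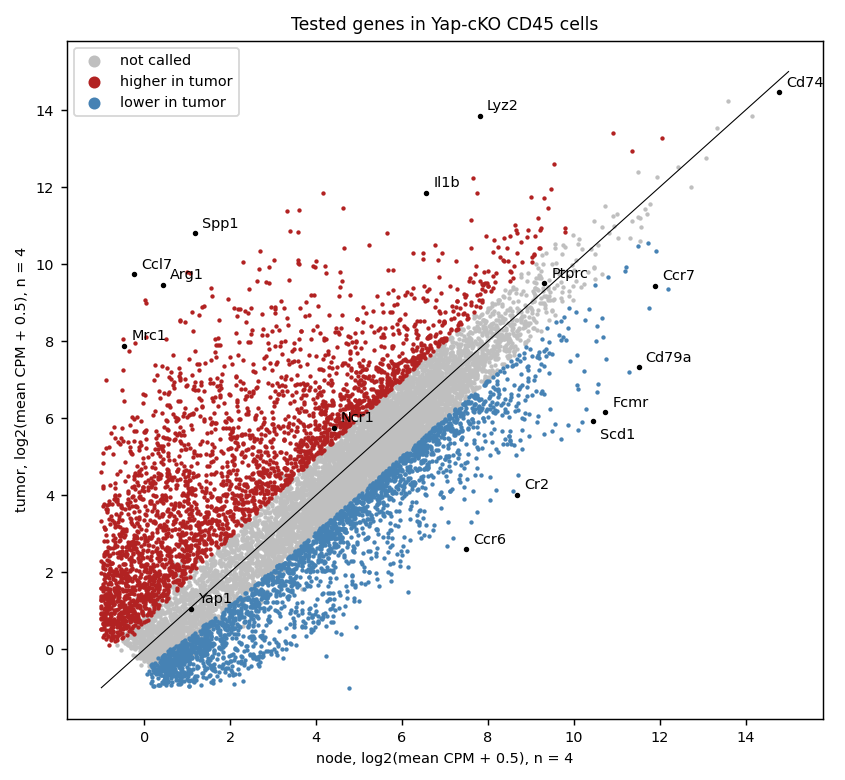
Mean level in 4 TIL libraries (vertical axis) against 4 TDLN libraries (horizontal axis), both as log2(CPM + 0.5), for the 13734 tested genes, with the diagonal of equal levels. Red points are the 3000 genes called higher and blue points the 2538 called lower in TILs, and Cd79a, Cr2 and Ccr6 lie far below the diagonal and Lyz2, Ccl7 and Spp1 far above it.

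Lyz2, the lysozyme of monocytes, macrophages and granulocytes, was at 96.5, 294, 221 and 283 CPM in TDLNs and at 8975, 19750, 12520 and 17850 CPM in TILs. The groups did not overlap, and TDLN replicate 1 was the lowest of all (log2 fold change 6.05, SE 0.441, adjusted p = 1.07e-06). Cd79a, the signaling chain of the B-cell receptor, was at 2200, 2627, 3661 and 3149 CPM in TDLNs and at 70.7, 157, 255 and 156 CPM in TILs. The groups did not overlap, and TIL replicate 1 was the lowest (log2 fold change −4.19, SE 0.375, adjusted p = 4.45e-06). Ncr1, which codes for the activating receptor NKp46 of natural killer cells, stood at 20.2, 18.4, 33.1 and 11.4 CPM in TDLNs and 42.4, 60.6, 53.1 and 57.7 CPM in TILs. TDLN replicate 3 came nearest to the TIL range (log2 fold change 1.36, SE 0.29, adjusted p = 0.00214). Ptprc, common to all sorted cells, was at 970, 1020, 202 and 341 CPM in TDLNs and 470.3, 921, 759 and 742 CPM in TILs. Its overlapping ranges were set by low levels in TDLN replicates 3 and 4 and TIL replicate 1, the libraries low in GC-poor genes (log2 fold change 0.19, SE 0.451, adjusted p = 0.74).

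Per length of transcript, the antigen-presentation gene Cd74 had the highest level in both tissues, with 37520 ± 3800 TPM in TDLNs and 25220 ± 3530 TPM in TILs (SD, n = 4). Other genes among the top 10 of both tissues included the actin gene Actb, the actin-binding peptide gene Tmsb4x and the MHC class II genes H2-Ab1, H2-Aa and H2-Eb1. In TDLNs the list was completed by Rps27, Lars2 and Cd52, and in TILs by Lyz2 and the ferritin chains Ftl1 and Fth1. Ftl1 stood at 3572 ± 511 TPM in TDLNs and 16570 ± 1482 TPM in TILs, and both Ftl1 (log2 fold change 2.49, SE 0.222, adjusted p = 4.33e-06) and Fth1 (log2 fold change 1.59, SE 0.256, adjusted p = 0.000326) were higher in TILs by count. Cd74 (log2 fold change −0.31, SE 0.221, adjusted p = 0.252), H2-Ab1 (log2 fold change 0.20, SE 0.25, adjusted p = 0.515) and H2-Eb1 (log2 fold change 0.09, SE 0.244, adjusted p = 0.764) did not pass the test.

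Of 21 lists of cell type markers, 19 had summed levels that did not overlap between TILs and TDLNs, the exceptions being plasma cells and T cells. In 5 lists the sum was lower in TILs although at least as many members were higher as were not, and 1 gene that also fell made up most of the sum in TDLNs. These were mature dendritic cells (Ccr7, 52.1% of the sum in TDLNs), plasmacytoid cells (Ly6d, 82%), innate lymphoid cells (Ccr6, 87.3%), gamma delta T cells (Blk, 97.5%) and endothelium (Pecam1, 97.7%).

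All 24 B-cell genes tested were lower in TILs and none overlapped between tissues, with a median log2 fold change of −3.96 against −0.09 over all tested genes. Their summed level was 21300, 24560, 25640 and 22480 CPM in TDLNs and 1246, 1757, 2658 and 1916 CPM in TILs, and it was lowest in TIL replicate 1 and highest in TIL replicate 3. Fcmr, the Fc receptor for IgM, fell from 1474, 1674, 1965 and 1694 CPM to 30.1, 67.2, 114 and 70.3 CPM (log2 fold change −4.59, SE 0.371, adjusted p = 2.15e-06). The complement receptor Cr2 fell from 568, 674, 152 and 248 CPM to 4.41, 14.3, 31.1 and 12.8 CPM (log2 fold change −4.71, SE 0.643, adjusted p = 0.000101), and its level in TDLNs 3 and 4 was below that in TDLNs 1 and 2. Fcer2a, the low-affinity IgE receptor of mature follicular B cells, was at 1096 ± 96.9 CPM in TDLNs and 51.3 ± 28.6 CPM in TILs (log2 fold change −4.42, SE 0.389, adjusted p = 3.99e-06). The B-lineage kinase Blk was at 382 ± 89.9 CPM in TDLNs and 16.8 ± 7.46 CPM in TILs (log2 fold change −4.50, SE 0.347, adjusted p = 1.57e-06). Of the B-cell genes, the IgM heavy chain Ighm fell from 3948, 4669, 5764 and 4480 CPM to 569, 554, 742 and 732 CPM (log2 fold change −2.86, SE 0.207, adjusted p = 1.03e-06), and Tnfrsf13b, the receptor TACI for the survival factors BAFF and APRIL, fell least (log2 fold change −1.70, SE 0.208, adjusted p = 4.51e-05).

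**Figure D2:**
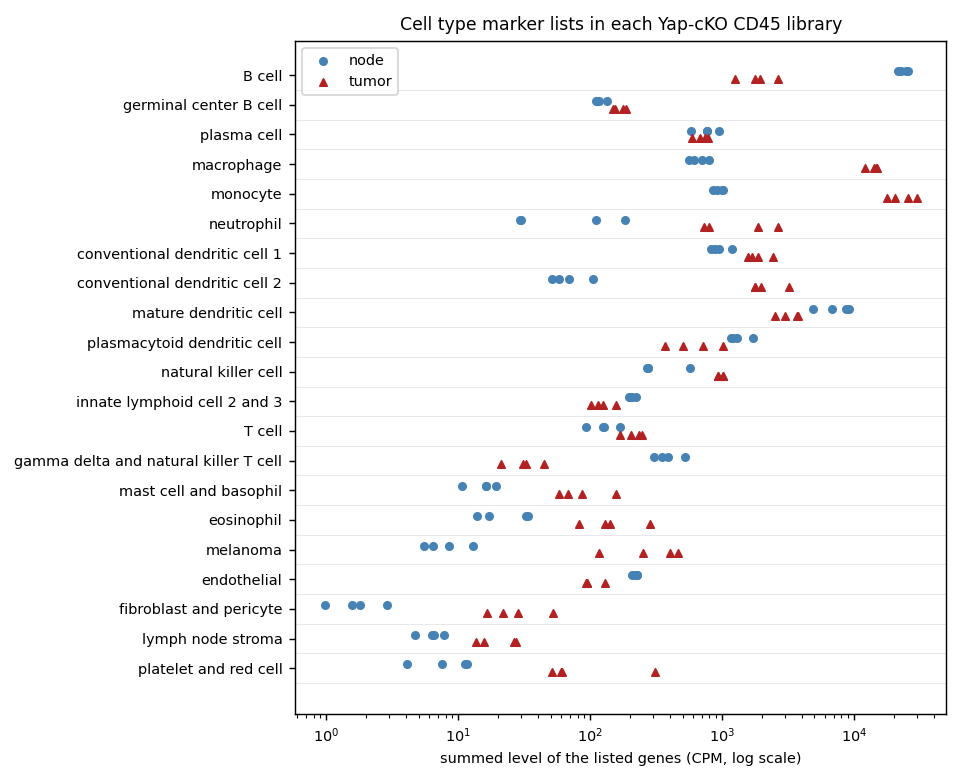
Summed level of each cell type marker list in CPM (log axis) in the 4 TDLN libraries (blue circles) and the 4 TIL libraries (red triangles). The B-cell list lies at 21300 to 25640 CPM in TDLNs and 1246 to 2658 CPM in TILs, and the macrophage list at 556.8 to 798.1 CPM and 12160 to 14890 CPM.

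The 10 genes with the largest falls in TILs, among called protein-coding genes at 50 CPM or more in TDLNs and with no overlap, were Ccr6, Pik3c2b, Cr2, Fcmr, Scd1, Blk, Dtx1, Fcer2a, Srpk3 and Chst3. Ccr6, the receptor for CCL20 on B cells and some innate lymphoid cells, fell from 162, 179.5, 198 and 182 CPM to 2.6, 5.62, 8.11 and 5.86 CPM (log2 fold change −5.02, SE 0.318, adjusted p = 3.8e-07). Dtx1, a ubiquitin ligase of the Notch pathway that is high in marginal zone and follicular B cells, was at 132 ± 40.4 CPM in TDLNs and 5.86 ± 3.91 CPM in TILs (log2 fold change −4.49, SE 0.46, adjusted p = 1.21e-05). The stearoyl-CoA desaturase Scd1, which makes monounsaturated fatty acids, was at 1053, 1430, 1083 and 2007 CPM in TDLNs and 32.8, 63.1, 90.5 and 56.2 CPM in TILs (log2 fold change −4.52, SE 0.355, adjusted p = 1.78e-06). Pik3c2b, a class II phosphoinositide kinase, was at 70 ± 13.6 CPM in TDLNs and 2.29 ± 1.46 CPM in TILs (log2 fold change −4.92, SE 0.441, adjusted p = 4.45e-06). The kinase Srpk3 and the chondroitin sulfotransferase Chst3 had log2 fold changes of −4.39 (SE 0.406, adjusted p = 5.68e-06) and −4.36 (SE 0.482, adjusted p = 2.15e-05). In all of these genes TIL replicate 3 held the highest level of the 4 TIL libraries and TIL replicate 1 the lowest.

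Germinal center genes went both ways, with 4 of 8 lower and 3 higher in TILs. Rgs13, a regulator of G-protein signaling in germinal center B cells, was at 8.91, 4.09, 0.536 and 1.45 CPM in TDLNs and at most 3 counts in each TIL library, so that it was at least 24.1-fold lower (3 counts per library as the floor). Its TDLN levels were lower in replicates 3 and 4 than in 1 and 2. The 3 higher genes were S1pr2, with 6.08 ± 1.1 CPM in TDLNs and 47.2 ± 3.85 CPM in TILs (log2 fold change 2.96, SE 0.197, adjusted p = 5.62e-07), Gcsam (log2 fold change 3.89, SE 0.388, adjusted p = 9.8e-06) and Fas (log2 fold change 1.97, SE 0.276, adjusted p = 0.000121), of which Fas is a death receptor of many cell types. Bcl6, the master repressor of the germinal center, missed the fold threshold (log2 fold change −0.70, SE 0.226, adjusted p = 0.0212).

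Plasma cell genes were also split, with 3 higher and 4 lower of 9. Irf4 (log2 fold change −2.93, SE 0.318, adjusted p = 1.86e-05), a transcription factor of activated B and plasma cells, and Mzb1 (log2 fold change −2.84, SE 0.223, adjusted p = 1.79e-06), a chaperone of antibody secretion, were lower in TILs. The plasma cell regulators Prdm1 (log2 fold change 1.89, SE 0.212, adjusted p = 2.36e-05) and Xbp1 (log2 fold change 1.53, SE 0.183, adjusted p = 3.87e-05) were higher, as was the joining chain Jchain of polymeric IgM and IgA at 23.8, 14.7, 17.1 and 3.34 CPM against 39.2, 56.5, 33.8 and 27.1 CPM (log2 fold change 1.41, SE 0.461, adjusted p = 0.0226; without TIL replicate 2 log2 fold change 1.24, adjusted p = 0.0525, with total count scaling log2 fold change 1.16, adjusted p = 0.0574). Sdc1, the plasma cell surface proteoglycan CD138, was at 64.8 ± 17.4 CPM in TDLNs and 70.6 ± 17.2 CPM in TILs and did not pass the test.

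Of 12 immunoglobulin constant genes, 7 were lower and 3 higher in TILs. Ighd, the IgD chain that mature naive B cells carry beside IgM, was at 2513 ± 249 CPM in TDLNs and 147 ± 81.6 CPM in TILs (log2 fold change −4.09, SE 0.406, adjusted p = 9.41e-06), and the kappa chain Igkc at 3463 ± 639 CPM in TDLNs and 460.2 ± 78.6 CPM in TILs (log2 fold change −2.91, SE 0.214, adjusted p = 1.14e-06). Igha, the heavy chain of IgA, was at 2.36, 2.66, 3 and 3.55 CPM in TDLNs and 49.7, 206, 92.2 and 39.6 CPM in TILs, so that each TIL library lay above every TDLN library (log2 fold change 5.06, SE 0.526, adjusted p = 1.35e-05). Ighg2c was at 0.713, 1.61, 0.375 and 0.485 CPM in TDLNs and 89.6, 0, 0.181 and 2.01 CPM in TILs, and the higher level in TILs was that of TIL replicate 1 alone (log2 fold change 4.82, SE 1.74, adjusted p = 0.035). Without that library it was at log2 fold change −0.10, adjusted p = 0.944, without TDLN replicates 1, 2, 3 or 4 its adjusted p was between 0.0518 and 0.0776 (edgeR), and with a replicate block it was 0.569 (edgeR), while without the libraries low in GC-poor genes it was at log2 fold change −0.62, adjusted p = 0.684. Ighg1 ran the other way, at 46.4, 21.7, 0.268 and 4.31 CPM in TDLNs and 0.212, 1.02, 0 and 0.335 CPM in TILs with a wide spread among the TDLNs (log2 fold change −5.55, SE 1.31, adjusted p = 0.00409). Of 101 heavy chain V genes tested 89 were lower in TILs and none was higher, and of 94 kappa V genes 87 were lower and none higher. Single V genes share sequence and are uncertain as such. Between 207 and 210 V genes held at least 10 counts in each TDLN library and 79, 108, 141 and 107 in the 4 TIL libraries, where the V genes together had 345.8 to 488 CPM against 2524 to 3761 CPM in TDLNs. The 5 most abundant V genes made up 16% to 17.2% of V counts in TDLNs and 46.3%, 41.2%, 24.5% and 20.8% in TILs.

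The form of the IgM message differed too. The secreted form Ighm-201, which ends in the tail shown above, made up 10.7, 7.43, 11 and 8.76% of the TPM of Ighm in TDLNs and 49.8, 25.3, 18.8 and 38.5% in TILs. All TIL libraries lay above all TDLN libraries, and the TIL libraries spread widely (exact permutation test, two-sided, p = 0.0286, adjusted p = 0.0343 over the transcripts tested). The adjusted p was 0.0643 by the same exact test without any 1 of the 4 TDLN libraries and 0.212 without the libraries low in GC-poor genes, where 2 against 3 libraries allow no p under 0.1. Since 4 against 4 libraries allow no p under 0.0286, every comparison of shares given here with no overlap has this p. The membrane form Ighm-202 made up the rest, 90.5 ± 1.67% in TDLNs and 66.9 ± 13.8% in TILs.

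Macrophage genes were higher in TILs without exception, 22 of 22, with a median log2 fold change of 7.05 and no overlap between tissues. Their summed level was 614, 557, 798 and 708 CPM in TDLNs and 14890, 14100, 12160 and 14660 CPM in TILs, and the TIL libraries were alike. C1qb, a chain of the complement component C1q made by macrophages, was at 0.802, 1.75, 2.47 and 1.29 CPM in TDLNs and 1220, 759, 661 and 822 CPM in TILs (log2 fold change 9.10, SE 0.412, adjusted p = 4.91e-08). Csf1r, the receptor for the macrophage growth factor CSF-1, rose from 13.6, 24.6, 31.5 and 27.9 CPM to 1624, 1406, 1162 and 1272 CPM (log2 fold change 5.81, SE 0.302, adjusted p = 1.01e-07). Mrc1, the mannose receptor CD206, was near 0 in TDLNs and at 307, 221, 189 and 224 CPM in TILs (log2 fold change 9.96, SE 0.419, adjusted p = 3.79e-08). Trem2, a lipid receptor of macrophages and microglia, was at 0.921 ± 0.203 CPM in TDLNs and 61.3 ± 11.8 CPM in TILs (log2 fold change 6.06, SE 0.265, adjusted p = 4.61e-08). Adgre1, the F4/80 antigen, was at 7.88 ± 2.38 CPM in TDLNs and 335 ± 34.3 CPM in TILs (log2 fold change 5.41, SE 0.26, adjusted p = 7.1e-08), and the scavenger Cd163 of resident macrophages at 0.712 ± 0.552 CPM in TDLNs and 15.3 ± 9 CPM in TILs (log2 fold change 4.42, SE 0.603, adjusted p = 0.000101).

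**Figure D3:**
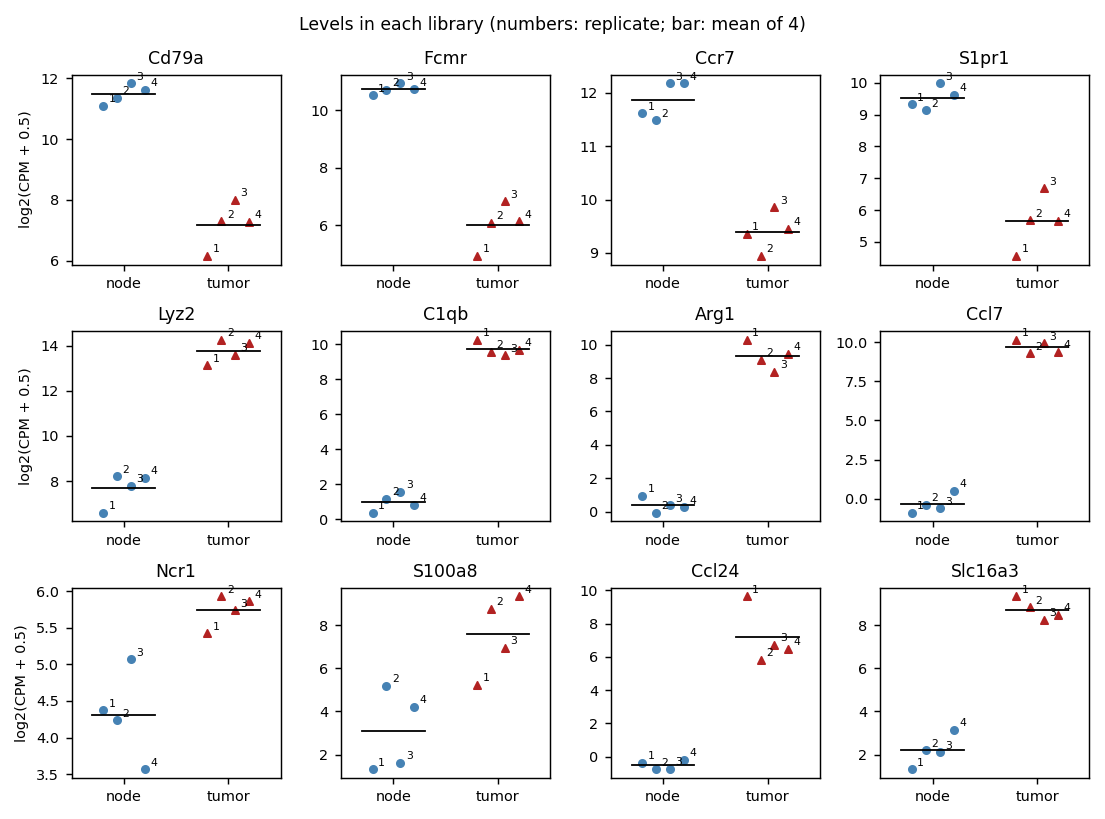
Level of 12 genes as log2(CPM + 0.5) in each library, TDLN in blue circles and TIL in red triangles, with replicate numbers and a bar at the mean of 4. Cd79a, Fcmr, Ccr7 and S1pr1 are lower in all TIL libraries than in any TDLN library, and Ccl24 in TIL replicate 1, at 802 CPM, lies above the other TIL libraries.

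Among monocyte genes 14 of 15 were higher in TILs and none was lower. Ly6c2, the surface antigen of classical monocytes, was at 89.5, 40.7, 58.7 and 50.7 CPM in TDLNs and 892, 631, 261 and 464 CPM in TILs (log2 fold change 3.23, SE 0.383, adjusted p = 3.55e-05). The chemokine receptor Ccr2, by which these monocytes leave bone marrow, was at 19.3, 23.6, 7.45 and 8.24 CPM in TDLNs and 592, 1329, 1042 and 1006 CPM in TILs (log2 fold change 6.08, SE 0.467, adjusted p = 1.54e-06), and it was lowest in TIL replicate 1. Fibronectin (Fn1) rose from 9.49 CPM to 2647 CPM (log2 fold change 8.12, SE 0.494, adjusted p = 2.84e-07), the coagulation factor chain F13a1 to 1061 CPM (log2 fold change 7.90, SE 0.608, adjusted p = 1.57e-06) and the chitinase-like gene Chil3 to 421 CPM (log2 fold change 5.76, SE 0.608, adjusted p = 1.53e-05). Ms4a4c was the exception, with 317 ± 36.8 CPM in TDLNs and 402 ± 163 CPM in TILs (log2 fold change 0.34, SE 0.27, adjusted p = 0.304).

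Of the neutrophil genes 12 of 16 were higher in TILs. Those of mature, activated neutrophils were among them, such as the growth factor receptor Csf3r (log2 fold change 5.38, SE 0.401, adjusted p = 1.25e-06) and the interleukin-1 decoy receptor Il1r2 (log2 fold change 4.37, SE 0.637, adjusted p = 0.000164), both of which monocytes can express as well. S100a8, a subunit of the alarmin calprotectin, was at 2, 36.2, 2.57 and 18.1 CPM in TDLNs and 37.5, 436, 124 and 653 CPM in TILs. Both groups spread widely, and TIL replicate 1 was scarcely above TDLN replicate 2 (log2 fold change 4.41, SE 1.06, adjusted p = 0.00453). The granule genes of immature neutrophils, Camp (log2 fold change −1.97, SE 1.32, adjusted p = 0.225), Ngp (log2 fold change −2.30, SE 1.33, adjusted p = 0.162) and Ltf (log2 fold change −0.81, SE 1.09, adjusted p = 0.552), did not pass the test. Ly6g, the antigen that defines neutrophils, was at 0, 0.689, 0.0536 and 0 CPM in TDLNs and 0.106, 0.535, 0.498 and 0.837 CPM in TILs (log2 fold change 1.33, SE 1.02, adjusted p = 0.286), where 3 counts per library are 0.134 to 0.168 CPM. Without TDLN replicate 2 it passed the test (log2 fold change 4.42, adjusted p = 0.00731).

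Dendritic cells divide into cDC1, which take up dead cells and present to CD8+ T cells, cDC2, which present to CD4+ T cells, and plasmacytoid cells, which make type I interferon. Of the cDC1 genes 7 of 9 were higher in TILs. The receptor Xcr1 was at 4.32, 3.9, 3.65 and 3.5 CPM in TDLNs and 29.1, 51.8, 49.3 and 34.7 CPM in TILs (log2 fold change 3.42, SE 0.243, adjusted p = 8.71e-07), and Clec9a, which senses dead cells, at 0.78 ± 0.565 CPM in TDLNs and 14.1 ± 3.03 CPM in TILs (log2 fold change 4.15, SE 0.447, adjusted p = 1.76e-05). Irf8 and Wdfy4, which B cells also express, did not pass the test, with 587 ± 128 CPM in TDLNs and 842 ± 108 CPM in TILs for Irf8. Of the cDC2 genes 8 of 9 were higher and Epcam was lower (log2 fold change −1.81, SE 0.367, adjusted p = 0.00158). Cd209a rose from 14.5, 9, 4.4 and 10.1 CPM to 582, 348, 278 and 333 CPM (log2 fold change 5.34, SE 0.396, adjusted p = 1.2e-06). Mgl2, a lectin of cDC2 and some macrophages, was highest in TIL replicate 1, at 726, 171, 192 and 348 CPM in the TILs against 1.42 CPM on average in TDLNs (log2 fold change 7.96, SE 0.648, adjusted p = 2.26e-06).

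The genes that dendritic cells turn on as they mature and migrate were higher in 9 of 12. Fscn1, the actin-bundling protein of mature dendritic cells, was at 8.86, 14.1, 1.02 and 3.29 CPM in TDLNs and 252, 178, 388 and 161 CPM in TILs (log2 fold change 5.16, SE 0.684, adjusted p = 8.23e-05). The interleukin-12 subunit Il12b was at 0.341 ± 0.217 CPM in TDLNs and 50.2 ± 17.3 CPM in TILs (log2 fold change 7.13, SE 0.44, adjusted p = 3.13e-07). Ccr7, the receptor that leads mature dendritic cells and naive lymphocytes into lymph nodes, went the other way, at 3144, 2865, 4646 and 4646 CPM in TDLNs and 656, 491, 926 and 699 CPM in TILs (log2 fold change −2.46, SE 0.259, adjusted p = 1.46e-05), as did Cd83 (log2 fold change −1.18, SE 0.316, adjusted p = 0.00809; without TDLN replicate 4 log2 fold change −0.998, adjusted p = 0.0306, without the libraries low in GC-poor genes log2 fold change −0.92, adjusted p = 0.0441). B cells express both. Plasmacytoid genes were higher in 7 of 11, but only 3 of the 11 did not overlap between tissues, against 52.1% of all tested genes. The count of higher genes was 4 without TDLN replicate 2, 3 without TIL replicate 4 and 2 without the libraries low in GC-poor genes. Siglech, their defining lectin, was at 109, 18.3, 4.4 and 43 CPM in TDLNs and 107, 87.7, 38.9 and 267 CPM in TILs and did not pass the test (log2 fold change 1.52, SE 0.798, adjusted p = 0.127), but did without TDLN replicate 1 (log2 fold change 2.51, adjusted p = 0.0199) and with a replicate block (log2 fold change 2.04, adjusted p = 0.00902).

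Natural killer cell genes rose together but by less than the myeloid genes, 19 of 22 with a median log2 fold change of 1.75. Their summed level was 272, 274, 565 and 271 CPM in TDLNs and 921, 1009, 927 and 1012 CPM in TILs. TDLN replicate 3 stood apart from the other nodes, and the TIL libraries agreed closely. Klrk1, the receptor NKG2D, was at 20.6, 19, 12.8 and 8.94 CPM in TDLNs and 88.2, 136, 141 and 127 CPM in TILs (log2 fold change 3.00, SE 0.285, adjusted p = 7.02e-06). Of the cytotoxic genes, granzyme B (Gzmb) rose from 12, 11, 22.6 and 15.4 CPM to 74.7, 56.2, 44 and 52.4 CPM (log2 fold change 1.90, SE 0.266, adjusted p = 0.000121) and perforin (Prf1) from 20.2, 22.3, 52.8 and 37.8 CPM to 66.5, 67.9, 69.6 and 72 CPM (log2 fold change 1.05, SE 0.284, adjusted p = 0.00849), a rise near the fold threshold that missed it without TDLN replicate 1 (log2 fold change 0.87, adjusted p = 0.0188) or 2 (log2 fold change 0.90, adjusted p = 0.0242) and with total count scaling (log2 fold change 0.85, adjusted p = 0.0219). Granzyme A (Gzma) missed the fold threshold at 41.9, 52, 127 and 60.3 CPM and 157, 154, 107 and 142 CPM (log2 fold change 0.99, SE 0.317, adjusted p = 0.0201), and passed it without TDLN replicate 3 (log2 fold change 1.44, adjusted p = 0.000227), TIL replicate 3 (log2 fold change 1.12, adjusted p = 0.0196) or TIL replicate 4 (log2 fold change 1.03, adjusted p = 0.0382) and with a replicate block (log2 fold change 1.13, adjusted p = 0.0251) or without the libraries low in GC-poor genes (log2 fold change 1.58, adjusted p = 0.000446). The chemokine Xcl1, which draws Xcr1-bearing dendritic cells, rose from 3.34, 5.92, 15.8 and 3.93 CPM to 33, 37.5, 41.3 and 51.4 CPM (log2 fold change 2.49, SE 0.448, adjusted p = 0.000705). The Ly49 genes of the list (Klra3, Klra4, Klra7, Klra8 and Klra9) are near-identical copies and are uncertain one by one.

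Of the genes of innate lymphoid cells of types 2 and 3, 5 of 7 were higher, among them Il1rl1, the receptor for interleukin-33 (log2 fold change 3.09, SE 0.565, adjusted p = 0.0008), and Areg (log2 fold change 3.56, SE 0.394, adjusted p = 2.16e-05), and 7 more of the 14 listed genes had too few counts to be tested. T-cell genes were higher in 6 of 20 (4 without TDLN replicate 2 or TIL replicate 1, 3 with total count scaling, 8 without the libraries low in GC-poor genes) and Bcl11b was lower (log2 fold change −1.28, SE 0.466, adjusted p = 0.0361; its adjusted p was 0.0822 to 0.124 by edgeR without TDLN replicate 3 or TIL replicate 1, 2 or 4; without the libraries low in GC-poor genes log2 fold change −0.59, adjusted p = 0.331), while Cd3e (log2 fold change −0.82, SE 0.532, adjusted p = 0.209), Cd3d and Cd3g did not pass the test. The share of higher genes in the T-cell list (30%) was near that of all tested genes (21.8%). Cd4 itself was at 20.1, 4.18, 3.22 and 8.13 CPM in TDLNs and 30.2, 10, 5.12 and 42.9 CPM in TILs, with overlapping groups (log2 fold change 1.30, SE 0.692, adjusted p = 0.13), and it passed the test without TDLN replicate 1 (log2 fold change 2.08, adjusted p = 0.0253) and with a replicate block (log2 fold change 1.23, adjusted p = 0.0168). Of the gamma delta and natural killer T-cell genes 3 of 6 were higher (2 without TDLN replicate 2 or 3 or TIL replicate 2 or 3), at levels under 4 CPM. Mast cell and basophil genes were higher in 3 of 7 (2 without TDLN replicate 1, 2 or 3 or TIL replicate 1), with Kit, which dendritic and progenitor cells also express, at 6.39 ± 4.18 CPM in TDLNs and 63.9 ± 15.3 CPM in TILs (log2 fold change 3.31, SE 0.411, adjusted p = 5.05e-05). Of 9 eosinophil genes listed 5 were tested, and 4 of these were higher. Il5ra was lower, at means of 9.24 TPM in TDLNs and 1.23 TPM in TILs, and made up 80.6% of the summed CPM of the list in TDLNs. The untested granule gene Epx was at 0 TPM in every library. Ear2, which monocytes express too, was at 2.11 ± 1.01 CPM in TDLNs and 104 ± 30.6 CPM in TILs (log2 fold change 5.62, SE 0.376, adjusted p = 5.72e-07), and Siglecf, the eosinophil lectin, at 0.713 ± 0.785 CPM in TDLNs and 6.43 ± 3.24 CPM in TILs (log2 fold change 3.18, SE 0.654, adjusted p = 0.00174).

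Most tested markers of cells outside the CD45 gate were higher in TILs. All 10 melanocyte genes tested were higher in TILs, with a summed level of 6.46, 5.46, 12.9 and 8.45 CPM in TDLNs and 116, 252, 399.8 and 464 CPM in TILs. Tyrp1, a melanin synthesis enzyme, was at 23.1, 64, 106 and 143 CPM in TILs (log2 fold change 7.50, SE 0.827, adjusted p = 2.1e-05). Fibroblast and pericyte genes were higher in 6 of 7, at 16.5 to 51.9 CPM in sum in TILs against 0.969 to 2.90 CPM in TDLNs. Endothelial genes were higher in 8 of 9, while Pecam1, which B cells and platelets share with endothelium, was lower (log2 fold change −1.98, SE 0.177, adjusted p = 4.45e-06). Of the platelet and red cell genes 5 of 6 were higher, with TIL replicate 4 the highest at 311 CPM in sum and the others at 50.8 to 60.7 CPM. Of 10 lymph node stroma genes listed 2 passed the count filter, and 1 of these, Clu, was higher (log2 fold change 2.03, SE 0.346, adjusted p = 0.0005; 3 genes of 4 without TDLN replicate 1, 2, 3 or 4 or TIL replicate 1). With no count filter 9 of the lymph node stroma genes were tested, and 3 were higher and 3 lower. Genes near 0 in TDLNs could pass the count filter only through the TIL libraries. Counts of higher genes in these lists, and in others with low levels in TDLNs, were therefore partly set by the filter. With no count filter 12 of 12 melanocyte, 10 of 12 fibroblast and pericyte, 10 of 12 endothelial and 6 of 10 platelet and red cell genes were higher. The sums of these lists in TILs ran from 13.5 to 464.5 CPM, and such sums do not measure shares of cells. The part of these cells in the results below was not tested.

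Genes by which lymphocytes home to and leave lymph nodes were lower in TILs in 9 of 12, and none was higher. S1pr1, the sphingosine-phosphate receptor for egress, was at 642, 562, 1015 and 789 CPM in TDLNs and 23, 50.5, 102 and 50.4 CPM in TILs (log2 fold change −3.73, SE 0.415, adjusted p = 2.22e-05). Cxcr5, the receptor for entry into B-cell follicles, was at 504, 795, 958 and 1074 CPM in TDLNs and 18.4, 39.6, 77.9 and 38.4 CPM in TILs (log2 fold change −4.26, SE 0.43, adjusted p = 1.09e-05). Klf2, the transcription factor that drives S1pr1, fell from 300.3, 786, 1198 and 606 CPM to 163, 242, 279 and 128 CPM (log2 fold change −1.83, SE 0.389, adjusted p = 0.00212). The integrin chains Itgb7 (log2 fold change 0.33, SE 0.235, adjusted p = 0.251), Itga4 (log2 fold change −0.16, SE 0.329, adjusted p = 0.706) and Itgal (log2 fold change 0.27, SE 0.144, adjusted p = 0.134) did not pass the test or its fold threshold.

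Of the CC chemokines 13 of 15 were higher, and the CXC list, which also held Cx3cl1 and Xcl1, was higher in 12 of 12. Ccl12, a ligand of CCR2, was at 254, 77.1, 74 and 103 CPM in TILs and at most 3 counts in each TDLN library, and was thus at least 856-fold higher. Ccl7, another CCR2 ligand, was at 0.0445, 0.276, 0.161 and 0.915 CPM in TDLNs and 1140, 620.3, 974 and 672 CPM in TILs (log2 fold change 11.28, SE 0.622, adjusted p = 1.45e-07). Ccl2, the main monocyte attractant, was at 0.401, 2.02, 1.18 and 2.42 CPM in TDLNs and 940.5, 764, 1056 and 788 CPM in TILs (log2 fold change 9.21, SE 0.498, adjusted p = 1.31e-07). The neutrophil attractant Cxcl2 rose from 2.81, 7.21, 4.61 and 16 CPM to 768, 1295, 844 and 1499 CPM (log2 fold change 7.17, SE 0.576, adjusted p = 2.05e-06). Cxcl9 (log2 fold change 4.75, SE 0.48, adjusted p = 1.1e-05) and Cxcl10 (log2 fold change 4.68, SE 0.248, adjusted p = 1.12e-07), which draw T cells through CXCR3 and are induced by interferon, were at 22.5 and 108 CPM in TILs. The eosinophil attractant Ccl24 differed among the TIL libraries, at 802, 55.5, 106 and 89.6 CPM (log2 fold change 10.25, SE 1.15, adjusted p = 2.35e-05; 8.65 without TIL replicate 1), and TIL replicate 1 was also the highest for Ccl8, at 183, 21.5, 12.8 and 35.7 CPM (log2 fold change 5.73, SE 0.933, adjusted p = 0.000361). Ccl25 was the chemokine that fell (log2 fold change −1.07, SE 0.255, adjusted p = 0.00417; without TIL replicate 4 log2 fold change −0.90, adjusted p = 0.0194).

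Of the chemokine receptors 10 of 19 were higher and 6 were lower. Beside Ccr2, those higher included Ccr1 (log2 fold change 6.80, SE 0.447, adjusted p = 4.94e-07) and Cx3cr1 (log2 fold change 4.56, SE 0.416, adjusted p = 5.08e-06) of monocytes and macrophages. Those lower were the lymphocyte receptors Ccr6, Ccr7, Cxcr4 (log2 fold change −2.34, SE 0.258, adjusted p = 2.06e-05) and Cxcr5, and Ccr10 and the decoy receptor Ackr2 at means under 3 CPM.

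The 10 protein-coding genes with the largest fitted log2 fold changes at 50 CPM or more were Ccl12, Ccl7, Ccl24, Spp1, Dab2, Mrc1, C3ar1, Arg1, Retnla and Pf4. Spp1 (osteopontin), a secreted glycoprotein of tumor macrophages, was at 1.47, 2.07, 1.55 and 1.99 CPM in TDLNs and 598, 1876, 2050 and 2615 CPM in TILs, lowest in replicate 1 (log2 fold change 9.97, SE 0.529, adjusted p = 1.13e-07). Arginase 1 (Arg1), which breaks down arginine, was at 1.43, 0.459, 0.804 and 0.7 CPM in TDLNs and 1258, 541, 334 and 700.4 CPM in TILs, highest in replicate 1 (log2 fold change 9.69, SE 0.561, adjusted p = 1.96e-07). Retnla, a target of interleukin-4 signaling in macrophages, was likewise highest in replicate 1, at 502, 85.5, 101 and 165 CPM (log2 fold change 9.58, SE 0.77, adjusted p = 2.06e-06). C3ar1, the receptor for the complement fragment C3a, was at 0.668, 0.459, 0.482 and 0.485 CPM in TDLNs and 557, 533, 541 and 411 CPM in TILs, with the smallest standard error of the 10 (log2 fold change 9.91, SE 0.256, adjusted p = 5.42e-09). The endocytic adaptor Dab2 (log2 fold change 9.97, SE 0.493, adjusted p = 8.11e-08) and the platelet factor Pf4 (log2 fold change 9.46, SE 0.529, adjusted p = 1.6e-07), which macrophages also make, completed the set.

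Inflammatory cytokines and enzymes of arginine metabolism were higher in 23 of 25. Il1b was at 35.2, 129, 74.5 and 136 CPM in TDLNs and 2718, 4499, 2973 and 4570 CPM in TILs (log2 fold change 5.30, SE 0.449, adjusted p = 3.01e-06), and its antagonist Il1rn at 7 ± 4.05 CPM in TDLNs and 976 ± 170.4 CPM in TILs (log2 fold change 7.13, SE 0.466, adjusted p = 4.81e-07). Nos2, the inducible nitric oxide synthase that competes with arginase for arginine, was at 25.2, 28.4, 20 and 38.6 CPM in TILs and at most 3 counts in each TDLN library, at least 189-fold higher. Tnf was at 10.7 ± 4.7 CPM in TDLNs and 245 ± 115 CPM in TILs (log2 fold change 4.52, SE 0.403, adjusted p = 4.33e-06). Il12a, the subunit that pairs with the Il12b product, was the one gene of the list that fell, at 10, 8.86, 9.44 and 12.2 CPM in TDLNs and 2.28, 2.14, 2.67 and 3.4 CPM in TILs (log2 fold change −1.95, SE 0.256, adjusted p = 7.69e-05), while Il12b rose.

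**Figure D4:**
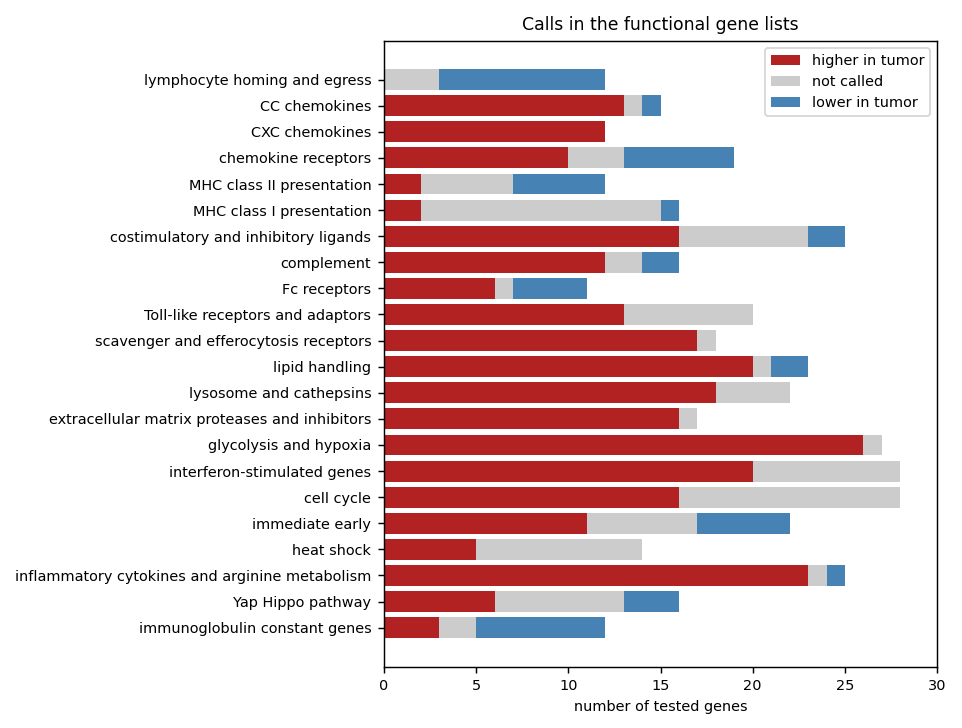
Number of tested genes in each functional list that were called higher (red), not called (grey) or called lower (blue) in TILs. All 12 tested CXC chemokines and 26 of 27 glycolysis and hypoxia genes are higher, and 9 of 12 homing and egress genes are lower.

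Genes of glycolysis and the hypoxia response were higher in 26 of 27, all 27 without overlap, with a median log2 fold change of 2.72. Slc16a3, the lactate exporter, was at 2, 4.09, 3.81 and 8.29 CPM in TDLNs and 647, 454, 303 and 354 CPM in TILs (log2 fold change 6.60, SE 0.467, adjusted p = 8.58e-07). The glucose transporter Slc2a1 rose from 135, 151, 160 and 175 CPM to 546, 602, 366 and 584 CPM (log2 fold change 1.76, SE 0.197, adjusted p = 2.33e-05) and lactate dehydrogenase Ldha from 585, 520.3, 661 and 942 CPM to 3028, 3038, 2127 and 3136 CPM (log2 fold change 2.06, SE 0.234, adjusted p = 2.56e-05). Egln3, an oxygen-sensing hydroxylase and hypoxia target, was at 2.45, 2.16, 2.2 and 4.52 CPM in TDLNs and 81.9, 137, 78.8 and 128 CPM in TILs (log2 fold change 5.23, SE 0.334, adjusted p = 3.97e-07), and the angiogenic factor Vegfa at 14.2 ± 4.3 CPM in TDLNs and 266 ± 69 CPM in TILs (log2 fold change 4.23, SE 0.285, adjusted p = 6.01e-07). Pdk1, the mitochondrial pyruvate dehydrogenase kinase, was not called, with 55.3 ± 11.1 CPM in TDLNs and 73.4 ± 3.97 CPM in TILs (log2 fold change 0.41, SE 0.181, adjusted p = 0.0753). RefSeq promoters were found for 25 of the 27 genes, and 16 of these (64%) held ACGTG on either strand in the 250 bases before a start, against 18.5% of 27025 genes with a promoter in the table. By promoter the shares were 48.6% of 35 and 16.6% of 32851. The list was chosen for these functions, so its share of the motif does not bear on the difference between tissues. The Ldha promoter shown above held 3 marked stretches, that of Slc16a3 held 2 and that of Egln3 held 1.

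The MHC class II list went both ways, with 2 higher and 5 lower of 12. The classical genes H2-Aa (log2 fold change −0.33, SE 0.243, adjusted p = 0.267), H2-Ab1 and H2-Eb1 and the invariant chain Cd74 did not pass the test, at summed list levels of 43990 to 70360 CPM in TDLNs and 43640 to 65790 CPM in TILs. H2-Ab1 was at 7282, 8969, 11510 and 13390 CPM in TDLNs and 15840, 10640, 9466 and 11360 CPM in TILs. H2-Ob, a chain of the peptide-loading inhibitor H2-O that B cells express, fell from 884, 1127, 1169 and 1162 CPM to 94, 114, 146 and 108 CPM (log2 fold change −3.23, SE 0.203, adjusted p = 3.55e-07), and its partner H2-Oa from 259, 385, 601 and 412 CPM to 74.7, 73.2, 67.4 and 76.7 CPM (log2 fold change −2.50, SE 0.243, adjusted p = 8.09e-06). The alternative beta chains of the peptide loader H2-DM moved in opposite directions. H2-DMb1 was at 288, 353, 498 and 498 CPM in TDLNs and 1740, 1187, 993 and 1120 CPM in TILs (log2 fold change 1.62, SE 0.247, adjusted p = 0.000227), and H2-DMb2 at 1131, 1482, 2157 and 1811 CPM and 340.4, 206, 284 and 271 CPM (log2 fold change −2.58, SE 0.246, adjusted p = 7.2e-06). Both are near copies of one another and reads could be shared between them. The class II transactivator Ciita was lower (log2 fold change −1.20, SE 0.23, adjusted p = 0.00112), and the protease Ctss, which trims the invariant chain, was higher (log2 fold change 1.71, SE 0.184, adjusted p = 1.75e-05). Of the MHC class I list 2 of 16 were higher (4 without TIL replicate 3, and 1 higher and 0 lower without the libraries low in GC-poor genes), the chaperones Canx (log2 fold change 1.20, SE 0.268, adjusted p = 0.00294; without TDLN replicate 3 log2 fold change 0.96, adjusted p = 0.000727, without the libraries low in GC-poor genes log2 fold change 0.96, adjusted p = 0.00146, with total count scaling log2 fold change 0.97, adjusted p = 0.0111) and Pdia3 (log2 fold change 1.59, SE 0.24, adjusted p = 0.000212), and H2-Q4 was lower (log2 fold change −1.29, SE 0.212, adjusted p = 0.000387; without the libraries low in GC-poor genes log2 fold change −0.99, adjusted p = 0.00241). H2-K1 (log2 fold change −0.59, SE 0.204, adjusted p = 0.0288) and B2m (log2 fold change 0.80, SE 0.197, adjusted p = 0.00519) were not called.

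In the list of costimulatory and inhibitory ligands, which also holds receptors such as Havcr2 and Siglecg, 16 of 25 genes were higher and 2 lower. Cd80 was at 2.45, 3.35, 1.66 and 2.37 CPM in TDLNs and 59.9, 51.4, 57.4 and 59.6 CPM in TILs (log2 fold change 4.53, SE 0.241, adjusted p = 1.16e-07), while its relative Cd86 was at 191, 76, 39.5 and 208 CPM and 189, 212, 185 and 201 CPM and not called (log2 fold change 0.61, SE 0.42, adjusted p = 0.237). Cd274, which codes for PD-L1, rose from 57.7, 97.8, 70.3 and 111 CPM to 159, 224, 182 and 205 CPM (log2 fold change 1.19, SE 0.225, adjusted p = 0.001; with total count scaling log2 fold change 0.98, adjusted p = 0.00283), and the related ligand Pdcd1lg2 did not pass the test (log2 fold change 0.02, SE 0.32, adjusted p = 0.96). The inhibitory gene Vsir (VISTA) was at 25.6, 20.6, 43.6 and 31.4 CPM in TDLNs and 377, 436, 315 and 383 CPM in TILs (log2 fold change 3.64, SE 0.254, adjusted p = 7.69e-07), and Havcr2 (TIM-3) at 1.95 ± 0.506 CPM in TDLNs and 65.9 ± 8.11 CPM in TILs (log2 fold change 5.08, SE 0.24, adjusted p = 6.44e-08). Icosl (log2 fold change −1.35, SE 0.24, adjusted p = 0.000642) and the B-cell inhibitory lectin Siglecg (log2 fold change −2.99, SE 0.217, adjusted p = 1.04e-06) were lower. Tgfb1 did not pass the test (log2 fold change 0.23, SE 0.253, adjusted p = 0.465).

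Lists of phagocyte functions were mostly higher in TILs. Scavenger and efferocytosis receptors were higher in 17 of 18, with Mfge8 under the fold threshold (log2 fold change 0.84, SE 0.237, adjusted p = 0.0108; without TDLN replicate 3 log2 fold change 1.04, adjusted p = 0.0022, without the libraries low in GC-poor genes log2 fold change 1.15, adjusted p = 0.00112). Lysosomal genes were higher in 18 of 22, led in level by cathepsin B (Ctsb) at 200.3 ± 36.6 CPM in TDLNs and 4819 ± 854 CPM in TILs (log2 fold change 4.59, SE 0.232, adjusted p = 8.85e-08) and prosaposin (Psap) at 747 ± 99.8 CPM in TDLNs and 6181 ± 1220 CPM in TILs (log2 fold change 3.05, SE 0.215, adjusted p = 8.25e-07). Genes of matrix proteases and their inhibitors were higher in 16 of 17. Timp1, an inhibitor of metalloproteases, was at 51.5, 25.3, 16.4 and 41.9 CPM in TILs and at least 228-fold higher, and Plaur, the urokinase receptor, did not pass the test (log2 fold change −0.02, SE 0.226, adjusted p = 0.946). Lipid-handling genes were higher in 20 of 23, such as the lipid droplet gene Plin2 (log2 fold change 5.99, SE 0.243, adjusted p = 3.54e-08) and apolipoprotein E (Apoe) at 399 ± 71.8 CPM in TDLNs and 2055 ± 274 CPM in TILs (log2 fold change 2.37, SE 0.197, adjusted p = 2.64e-06). The cholesterol exporters Abca1 (log2 fold change −1.54, SE 0.254, adjusted p = 0.000393) and Abcg1 (log2 fold change −1.12, SE 0.219, adjusted p = 0.00127; without TDLN replicate 4 log2 fold change −0.87, adjusted p = 0.0047, without TIL replicate 4 log2 fold change −0.99, adjusted p = 0.0085, without the libraries low in GC-poor genes log2 fold change −0.74, adjusted p = 0.00499) were lower. Toll-like receptors and their adaptors were higher in 13 of 20, with Tlr2 at 15.9 ± 6.11 CPM in TDLNs and 485 ± 57.6 CPM in TILs (log2 fold change 4.93, SE 0.301, adjusted p = 2.96e-07) and none lower (2 without TDLN replicate 1). Complement genes were higher in 12 of 16, and Cr2 and the complement inhibitor Cd55 (log2 fold change −3.33, SE 0.488, adjusted p = 0.000168) were lower. Of 11 Fc receptor genes 6 were higher and 4 lower, with the IgG receptors Fcgr1 (log2 fold change 8.98, SE 0.477, adjusted p = 1.14e-07), Fcgr3 (log2 fold change 7.07, SE 0.333, adjusted p = 6.41e-08) and Fcgr4 (log2 fold change 6.65, SE 0.423, adjusted p = 3.9e-07) higher and Fcer2a, Fcmr and, at under 3 CPM, Fcamr and Pigr lower.

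Interferon-stimulated genes were higher in 20 of 28 and none was lower, against 21.8% of all tested genes. The antiviral radical enzyme Rsad2 was at 3.92, 7.35, 1.66 and 2.58 CPM in TDLNs and 189.6, 133, 102 and 121 CPM in TILs (log2 fold change 5.12, SE 0.442, adjusted p = 3.42e-06), and Isg15 at 7.32 ± 1.58 CPM in TDLNs and 116 ± 74.3 CPM in TILs (log2 fold change 3.98, SE 0.423, adjusted p = 1.58e-05). The Ifit and Oas genes share sequence with their neighbors and are uncertain one by one.

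Of 28 cell cycle genes 16 were higher, with a summed level of 531.2 to 675 CPM in TDLNs and 522.9 to 682.7 CPM in TILs. The count was 10 without TIL replicate 3, 11 without TIL replicate 4, 11 without TDLN replicate 4, 11 without the libraries low in GC-poor genes and 10 with total count scaling, under which 2 genes were lower. Mki67 was at 3.25, 1.61, 0.0536 and 0.0539 CPM in TDLNs and 5.1, 8.24, 8.15 and 11.4 CPM in TILs, with TDLN replicates 3 and 4 near 0 (log2 fold change 2.70, SE 0.857, adjusted p = 0.0198). The replication genes Mcm2 (log2 fold change −0.89, SE 0.193, adjusted p = 0.00236), Mcm3 (log2 fold change −0.31, SE 0.161, adjusted p = 0.126), Mcm5 (log2 fold change −0.86, SE 0.164, adjusted p = 0.00106) and Pcna (log2 fold change −0.43, SE 0.181, adjusted p = 0.063) were not called. With total count scaling Mcm2 (log2 fold change −1.10, adjusted p = 0.000377) and Mcm5 (log2 fold change −1.08, adjusted p = 0.00012) were called lower. Immediate early genes, which respond to stimulation within minutes and also to cell handling, were higher in 11 of 22 and lower in 5. Atf3 rose from 24.9, 62.9, 84.8 and 46.4 CPM to 960.2, 1183, 896 and 671 CPM (log2 fold change 4.08, SE 0.368, adjusted p = 4.63e-06) and Fos was at 332 ± 169.7 CPM in TDLNs and 1627 ± 714 CPM in TILs (log2 fold change 2.29, SE 0.432, adjusted p = 0.000978). Nr4a1, a target of antigen receptor signaling, fell from 2207, 4241, 5274 and 3590 CPM to 1646, 1394, 1545 and 598 CPM (log2 fold change −1.56, SE 0.344, adjusted p = 0.00265), and so did Myc, from 61.3, 329, 285 and 283 CPM to 39.9, 42.7, 68.3 and 36.4 CPM (log2 fold change −2.35, SE 0.44, adjusted p = 0.000923). Heat shock genes were higher in 5 of 14 (3 without TDLN replicate 3, and 2 higher and 2 lower without the libraries low in GC-poor genes), among them Hspa1a, at 700.1, 60, 91.7 and 135 CPM in TDLNs and 2048, 1439, 1281 and 2015 CPM in TILs (log2 fold change 2.78, SE 0.681, adjusted p = 0.00496; without the libraries low in GC-poor genes log2 fold change 2.12, adjusted p = 0.0596), which has a near-identical copy, while the constitutive Hspa8 did not pass the test (log2 fold change −0.41, SE 0.312, adjusted p = 0.289). The labels give mechanical and enzymatic dissociation for tumors and nodes alike, the study's methods describe an enzyme digestion of tumors, and the part of handling in these genes was not tested.

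Of the Hippo pathway genes around Yap, 6 of 16 were higher and 3 were lower, where 21.8% of all tested genes were higher and 18.5% lower. Those higher included the Yap targets Ccn1, at 3.72 CPM in TILs, and Ccn2 (log2 fold change 4.51, SE 0.834, adjusted p = 0.000867) and the Yap paralog Wwtr1 (log2 fold change 4.34, SE 0.776, adjusted p = 0.000681), each below 4 CPM in TILs and near 0 in TDLNs. The fibroblast list, also higher in TILs, came to 21.7, 16.5, 51.9 and 28.4 CPM in the 4 TIL libraries, and its part in these genes was not tested. The kinase Lats2 (log2 fold change −1.68, SE 0.288, adjusted p = 0.000527) and the cofactor Vgll4 (log2 fold change −1.34, SE 0.16, adjusted p = 3.86e-05) were lower.

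The forms of Ptprc separated the tissues although its level did not. Transcripts with at least 1 of the 3 alternative exons shown above made up 86.6, 83.5, 65.5 and 80.9% of the TPM of Ptprc in TDLNs and 31.9, 21, 28.5 and 27.7% in TILs. Transcripts that span the region and hold none of these exons made up 5.8, 5.03, 10.7 and 4.91% in TDLNs and 63, 70.5, 62.5 and 64.2% in TILs, so the groups were far apart in both shares, and the remainder does not span the region. TDLN replicate 3, which held the fewest reads of Ptprc, was the node nearest to the tumors. Without the libraries low in GC-poor genes the means of Ptprc-207 and Ptprc-203 differed by −45.4 and 46.5 percentage points (exact permutation test, adjusted p = 0.12, where 2 against 3 libraries allow no p under 0.1). By transcript, Ptprc-207 with all 3 exons made up 48.8 ± 8.37% in TDLNs and 8.12 ± 2.02% in TILs, and Ptprc-203, which lacks them, made up 5.88 ± 1.8% in TDLNs and 52.7 ± 5.27% in TILs (exact permutation test, two-sided, p = 0.0286 for each, adjusted p = 0.0343). The share with at least 1 exon includes the short transcripts Ptprc-212 and Ptprc-213, which weigh more by TPM than by counts. In TDLNs Ptprc-212 held 24.5% of TPM but 1.86% of counts, and in TILs Ptprc-213 held 16.9% of TPM but 2.39% of counts. By counts Ptprc-207 made up 76.7% in TDLNs and 10.9% in TILs, and Ptprc-203 8.72% in TDLNs and 65.4% in TILs. B cells carry the long form of CD45 and myeloid cells shorter forms. Cd74-202, which holds 1 more exon than Cd74-201, made up 8.73 ± 0.607% in TDLNs and 14.8 ± 0.484% in TILs of Cd74 (exact permutation test, p = 0.0286, adjusted p = 0.0343, and 0.12 without the libraries low in GC-poor genes). Of 18 transcripts tested from 6 genes, 15 passed. Shares of transcripts of the same gene depend on one another, so these are not separate results. Fn1-203 passed as a share of TPM (means of 7.76% in TDLNs and 15.2% in TILs) but not as a share of counts (16.45% and 16.04%).

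**Figure D5:**
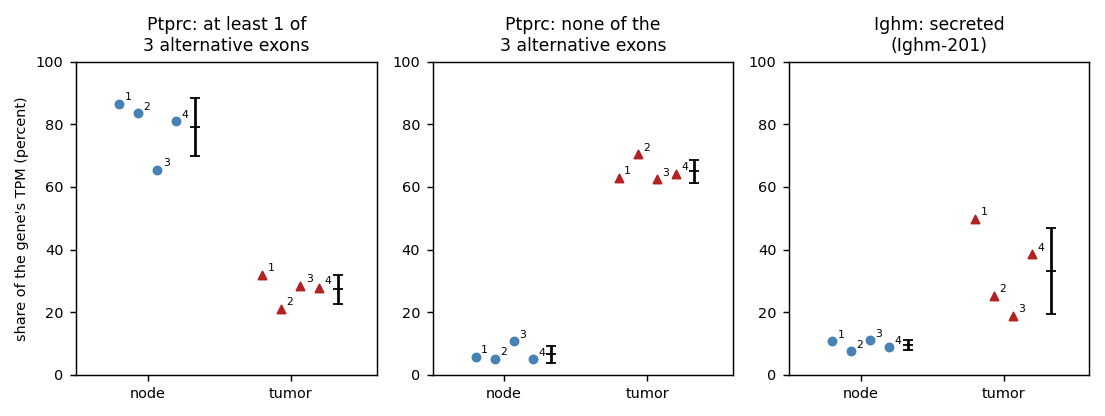
Share of the TPM of Ptprc on transcripts with at least 1 and with none of 3 alternative exons, and of Ighm on its secreted form, in percent for each library (numbers: replicate) with mean ± SD over 4. The shares do not overlap between TDLNs (blue circles) and TILs (red triangles), and the secreted form of Ighm spreads from 18.8% to 49.8% in TILs.

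The same comparison in WT mice, from 8 further libraries that share none with those above, was set beside that of Yap-cKO mice. Lyz2 had a log2 fold change of 4.19 in WT, and the difference of Yap-cKO from WT was 1.86 (SE 0.808, adjusted p = 0.534) by edgeR's interaction test over 16 libraries. For Cd79a it was −2.79 in WT with a difference of −1.39 (SE 0.449, adjusted p = 0.343), and for Ncr1 1.26 with a difference of 0.12 (SE 0.506, adjusted p = 0.985). No gene of 14871 passed the interaction test (0%) with edgeR, with 1246 (8.38%) at an unadjusted p under 0.05, while DESeq2 called 119 genes. Of the 3000 genes higher in Yap-cKO TILs, 2972 had a fold change of the same sign in WT, where their median log2 fold change was 2.23, and of the 2538 lower genes 2503 did, with a median of −1.47. Across all 14871 genes, which are not independent replicates, the fold changes of both genotypes had a Pearson r of 0.899.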

How the data were processed

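RNA of sorted cells was measured by SMART-Seq v4 libraries and 75-base paired-end reads. Per the labels and file headers the authors trimmed reads with Trimmomatic and quantified mouse mm10 transcripts with Salmon 0.9.1, and they deposited expected counts (estimated counts per transcript) and TPM (scaled by effective transcript length). Of 112092 transcripts, 111787 matched GENCODE M21 (GRCm38), giving 34932 genes, with 0.0565% to 0.096% of counts unmatched. Expected counts were summed per gene and rounded. There were 0 tables that mix samples, and no 2 libraries were identical. Reads were not assigned by strand, and overlapping or near-identical genes (immunoglobulin, Klra, Hba, Ear, class I, Hspa1, Ifit and Oas genes) are uncertain one by one. Without molecular identifiers, floors cover counting error only.

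Genes with 10 or more counts in 4 or more of 8 libraries were tested with edgeR 4.0.16 (R 4.3.3, TMM, quasi-likelihood F test, Benjamini-Hochberg adjustment over all of them). DESeq2 1.42.0 was an alternative. The level below which a gene counts as undetected is 3 counts per library. Shares of TPM by transcript were compared by an exact permutation test with scipy 1.17.1. The difference from WT mice was an edgeR interaction over 16 libraries. The genes named are the 3 markers, Ptprc, Yap1, the 10 largest changes in each direction at 50 CPM or more without overlap, list members, and the 10 highest by TPM. The members and lists were chosen with earlier results of these data known. Leaving out the libraries low in GC-poor genes was chosen after seeing the data. Values of some list members and of some of the highest genes by TPM are not reported here.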

Additional observations from a re-analysis of the deposited data

Results flagged for a closer look

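In 32 of 440 groups of 4 libraries, 1 library lay further from the other 3 than Dixon's 95% limit allows, where chance gives about 1 in 20. TDLN replicate 3 accounted for 8 of them, TIL replicate 1 for 7 and TDLN replicate 1 for 6. All values are CPM unless stated.

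In TIL replicate 1 the values were 254 for Ccl12 (others 74 to 103), 802 for Ccl24 (55.5 to 106), 183 for Ccl8 (12.8 to 35.7), 89.6 for Ighg2c (0 to 2.01) and 13.2 for Il1rl1 (8.24 to 8.43). The cDC2 list came to 3188 there (1764 to 1961) and the endothelial list to 130.1 (93.2 to 94.7). In TIL replicate 2 Tlr2 was at 570.5 (449 to 467), and in TIL replicate 3 Ldha was at 2127 (3028 to 3136). In TIL replicate 4 C3ar1 was at 411 (533 to 557), Ly6d at 127.5 (98 to 103), Fcamr at 0.168 (0 in the others) and the platelet and red cell list at 311 (50.8 to 60.7).

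In TDLN replicate 1 Bcl6 was at 63.5 (90.1 to 92.6), C3ar1 at 0.668 (0.459 to 0.485), H2-Ob at 884 (1127 to 1169), Hspa1a at 700.1 (60 to 135), Myc at 61.3 (283 to 329) and Timp1 at 0.0445 (0 in the others). In TDLN replicate 2 Fcgr1 was at 1.15 (0.267 to 0.375), Ly6g at 0.689 (0 to 0.0536) and Nos2 at 0.0459 (0 in the others). In TDLN replicate 3 Bcl11b was at 4.08 (1.24 to 1.61), Ccn1 at 0.107 (0 in the others), Chst3 at 259 (167 to 182), Itgb7 at 462 (284 to 313), Pik3c2b at 90.3 (61.2 to 64.5) and Siglecf at 1.88 (0.161 to 0.445). The natural killer cell list came to 565 there (271 to 274), and Ptprc-207 made up 36.3% of Ptprc (53% to 53.1%). In TDLN replicate 4 Egln3 was at 4.52 (2.16 to 2.45) and Il1r2 at 26.8 (3.91 to 7.26).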

How the results depend on the processing

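The count of 5538 genes that differed between tissues ran from 5391 to 5669 with 1 library left out and from 5401 to 6345 under DESeq2, total count scaling, no count filter, transcript length offsets, a replicate block, a fit over 16 libraries and the omission of the 3 libraries low in GC-poor genes. A test against a log2 fold change of 1 (glmTreat) called 3491 genes, 1273 of them lower, and the adjusted p alone called 3836 lower. The labels do not say whether replicate numbers pair the samples, and correlations between different tissues cannot settle it. The correlations of same-numbered libraries were −0.128, 0.295, −0.152 and 0.007, and not every library matched its own number best. A replicate block gave 5401 calls. The count of 0 interaction genes became 119 with DESeq2 (39 more positive and 80 more negative in Yap-cKO), 2 with no count filter (1 and 1) and 0 to 2 with 1 library left out (0 to 1 more positive and 0 to 2 more negative), and stayed 0 with the replicate block. Of 191 named genes, 171 kept their direction and side of the threshold in all alternatives other than glmTreat and the adjusted p alone. Ighg2c reversed without TIL replicate 1 (log2 fold change −0.095) and without the libraries low in GC-poor genes (−0.62), and ran up to 5.41 with other libraries left out. Of 18 transcript shares, 15 passed, 14 as shares of counts and 12 to 13 with 1 library left out. The cause of these changes was not tested. At 3 counts, 0.134 to 0.168 CPM, lower levels were not resolved.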
